A study of Mus musculus with 6 samples.

Results

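Endothelial cells were studied in single-cell libraries of mouse lung that had been selected for CD45, a surface protein of blood cells that endothelial cells lack, so the cells described here are those that the selection carried over. Lungs of wild-type (WT) and NOS1 KO mice had been taken 4 h after an intraperitoneal injection of lipopolysaccharide (LPS, 10 mg/kg), a cell wall component of Gram-negative bacteria, or of vehicle. The labels give 1 KO vehicle library, 2 KO LPS libraries, 1 WT vehicle library and 2 WT LPS libraries. Nos1 encodes neuronal nitric oxide synthase; no label gives the allele, age or sex, the series gives the wild type as C65BL6, and nothing says whether the 2 LPS libraries of a genotype came from separate animals or from pools. The p-values below therefore reflect only how far these libraries differ from each other, which may be technical. A barcode was taken as endothelial when it had at least 200 genes, at most 10% mitochondrial UMIs (unique molecular identifiers, each 1 counted RNA molecule), and at least 4 UMIs of Cldn5, Cdh5, Calcrl and Ramp2 together with at least 1 from Cldn5 or Cdh5. It also had at most 1 UMI of Ptprc, the gene of CD45, under 5% of its UMIs from S100a8 and S100a9, at most 2 from Col1a2 and Col3a1, and 0 from Cd79a and Cd3e. The members were thus chosen by their measured counts of these genes, and the levels of these genes are given as a description. Cldn5, Cdh5, Calcrl and Ramp2 are left out of the counts over gene lists. The genes used for exclusion are not left out of theirs. In all, 1804 of 61736 barcodes that passed the cell filter (2.92%) met this rule.

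Endothelial cells line the blood vessels and form the barrier between blood and tissue. In the lung most of them are capillary cells, of which general capillary cells repair the network and respond to blood flow, and aerocytes lie thinly against the air sacs for gas exchange. LPS is sensed by the receptor TLR4 with MD-2 and CD14 and acts through MyD88 and the transcription factor NF-kB. The activated endothelium is known for adhesion molecules that capture leukocytes, chemokines, a shift from anticoagulant to procoagulant surface proteins, and a looser barrier, and interferon adds its own set of genes.

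The rule found 198 of 8595 barcodes in the KO vehicle library, 454 of 11578 and 284 of 8384 in the KO LPS libraries, 251 of 10338 in the WT vehicle library, and 259 of 10772 and 358 of 12069 in the WT LPS libraries. These are shares of 2.30%, 3.92%, 3.39%, 2.43%, 2.40% and 2.97%, with exact Clopper-Pearson 95% intervals of 2.00 to 2.64, 3.57 to 4.29, 3.01 to 3.8, 2.14 to 2.74, 2.12 to 2.71 and 2.67 to 3.28%. A share of cells that escaped a selection says nothing about how many endothelial cells a lung held, and no test was made of it. At the threshold of 4 marker UMIs lay 9 members of the KO vehicle, 23 and 11 of the KO LPS, 10 of the WT vehicle, and 21 and 17 of the WT LPS libraries. With 3 marker UMIs, and meeting every other condition, lay 8, 29, 12, 6, 14 and 19 barcodes in the same order.

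The label was checked on markers that the rule did not use. Of all members, 85.7% had a UMI of Pecam1 (CD31), 84.0% of Eng, 80.3% of Cd93, 77.8% of Esam, 72.5% of Egfl7, 48.6% of Tie1, 46.5% of Kdr (VEGF receptor 2) and 28.3% of Emcn. Markers of other endothelial classes varied widely within each list. Of 8 lymphatic markers Lyve1 was found in 86.8% of members and Flt4 in 26.2%, while the other 6, Prox1 and Ccl21a among them, were found in 0.055 to 2.33%. Of 8 arterial markers Efnb2 was found in 47.6%, Gja4 in 42.8%, Sox17 in 21.8% and Hey1 in 15.7%, and the other 4 in 0 to 3.66%, with Gja5 in 1.2% and Dkk2 at 0 in every library. Of 8 venous markers Vwf was found in 26.6%, Nr2f2 in 13.6% and Prss23 in 13.4%, and the other 5 in 1.83 to 7.10%. Markers of other cell types were also counted over whole lists. These lists include S100a8, S100a9, Col1a2, Col3a1, Cd3e and Cd79a, which the rule capped. The shares of those lists in the members are therefore in part set by the rule. Neutrophil markers made up 0.005 to 0.008% of the members' UMIs with vehicle and 0.299 to 0.543% with LPS, against 0.256 to 0.320% and 7.28 to 9.53% in all other barcodes. Platelet markers went from 0.0036 to 0.018% to 0.014 to 0.193%. Epithelial markers went from 0.0832 to 0.101% to 0.0852 to 0.528%, and red cell markers from 0.0038 to 0.012% to 0.0027 to 0.104%. In other barcodes under LPS these lists made up 0.0145 to 0.0262%, 0.0366 to 0.276% and 0.0018 to 0.0148%. Members exceeded other barcodes in epithelial markers in every LPS library but KO LPS replicate 2. They did so in platelet markers in all but KO LPS replicate 1, and in red cell markers in all but WT LPS replicate 2. Sftpc was found in 24.7% and Hopx in 65.1% of members. Monocyte and macrophage markers made up 0.0270 and 0.0435% with vehicle and 0.0235 to 0.0846% with LPS, against 1.31 to 1.36% and 0.771 to 0.919% in other barcodes, with Lyz2 in 37.1% and Chil3 in 32.9% of members. Stromal and pericyte markers made up 0.0417 and 0.0598% with vehicle and 0.0162 to 0.0339% with LPS, above the 0.0136 to 0.0152% and 0.0045 to 0.0103% of other barcodes, with Postn in 13.8%, Gucy1a1 in 12.6% and Pdgfrb in 9.09% of members. T and NK cell markers stayed at or under 0.0045% and B cell markers at or under 0.0070%, with Cd3e and Cd79a at 0 by the rule. How far free RNA or attached cells entered the results below was not tested as such.

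The 6 libraries held 55361477 to 115225284 UMIs in all, and the summed endothelial counts 1170964 to 3624345. Median UMIs per endothelial cell were 3990.5 and 2838 in the KO and WT vehicle libraries, 5355 and 4682.5 in the KO LPS and 6272 and 4836.5 in the WT LPS libraries. Any pair of libraries shared 20 to 35 barcodes, and 1 barcode was endothelial in more than 1 library. Nos1, the gene that the KO labels name, had 0 UMIs in the endothelial cells of every library. In whole libraries it had 5 UMIs in KO vehicle, 4 and 4 in KO LPS, 2 in WT vehicle, and 0 and 1 in WT LPS, so its counts do not check the genotype labels. Transcripts of the sex chromosomes set the libraries apart: Xist is made by cells with an inactive X, and Y-linked genes by male cells. In WT vehicle 107 of the endothelial cells had only Y-linked UMIs, 0 had Xist and 144 had neither. In KO vehicle 134 had only Xist and 64 neither, and in the WT LPS libraries 170 and 244 had only Xist and 89 and 114 neither. The KO LPS libraries held both kinds, with 197 and 129 Xist-marked and 95 and 55 Y-marked cells, 10 and 6 with both marks and 152 and 94 with neither, so that 32.5% and 29.9% of cells with 1 kind of mark were Y-marked. LPS and sex marks therefore cannot be told apart within WT, and KO against WT under LPS sets mixed libraries against Xist-marked ones. For most results on genotype the same fit is given for Xist-marked cells alone. Where KO and WT libraries are set side by side within the LPS response, the levels are of all members and so of both marks.

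Counts were summed over the endothelial cells of each library and tested with edgeR's quasi-likelihood test across 10929 genes, and adjusted p-values are Benjamini-Hochberg values from it. Levels are CPM, counts brought to a common library total, on totals scaled by the trimmed mean of M-values (TMM), which compare 1 gene between libraries and not genes with each other. LPS against vehicle was averaged over the genotypes, 4 libraries against 2. Each vehicle group has 1 library, so the spread behind the SEs and p-values comes from the LPS pairs alone. The 2 vehicle libraries also differ in genotype and sex mark. For LPS against vehicle, a fit without 1 of them gives the change within the other genotype alone, not an average. Such a fit therefore does not separate dependence on 1 vehicle library from a difference between genotypes. Where 2 vehicle values stand together KO comes first, and where 2 LPS values do, replicate 1. A gene at 0 UMIs in both vehicle libraries is given as at least so many fold higher, counted against a floor of 3 UMIs over both. In a sum over cells, fewer cells that make a transcript and less of it per cell cannot be told apart.

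Under LPS 6264 genes passed the test, 57.3% of those tested: 3379 (30.9%) rose and 2885 (26.4%) fell. Scaling moved this split: on plain totals 1816 rose and 5498 fell, with the median gene shifted by -0.61 on the log2 scale, and rises were 24.8% of calls in place of 53.9%. The changes below are relative to the TMM scaling, and a list whose direction turns on plain totals is marked as such. Counts over lists stand beside these shares of all genes, 30.9% and 26.4%. Counts on plain totals stand beside 1816 and 5498 of 10929. Leaving out the WT vehicle library left 1776 falls. Every LPS library was above every vehicle library for 32.7% of genes and below for 32.2%. Within KO, where both treatments held Xist-marked cells, the LPS change in those cells alone was 5.75 for Icam1, 9.84 for Rsad2, 3.84 for Nfkbia, -5.16 for Hpgd, -3.82 for Thbd and -2.56 for Kdr, genes described below.

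The chemokines CXCL9 and CXCL10, which draw T and NK cells through CXCR3, were among the genes found at 0 UMIs with vehicle and at high levels with LPS. Cxcl10 was at 0 CPM in both vehicle libraries, at 12649.9 and 13067 CPM in the KO LPS libraries and at 22525 and 23195 CPM in the WT LPS libraries, at least 19333-fold higher. Cxcl9 was at 0 with vehicle, at 616 and 758 CPM in KO LPS and at 2262 and 1985 CPM in WT LPS, at least 1521-fold higher. All LPS libraries were high in both genes, and both KO libraries were below both WT libraries. Rsad2, whose product viperin blocks the growth of many viruses, went from 9.89 and 5.89 CPM to 6709 and 7180.2 in KO LPS and 8364 and 8738 in WT LPS, a log2 change of 9.97 ± 0.11 (SE). With each cell thinned to 1000 UMIs, 89.2% and 90.5% of KO LPS and 99.6% and 100% of WT LPS endothelial cells had a Cxcl10 UMI. Before thinning these shares were 96.7, 96.8, 100 and 100%. B cells in the same libraries gave 22.7 to 32.9% and were used as a reference for free RNA. They were chosen to hold no UMI of Cldn5, Cdh5, Calcrl and Ramp2. This may lower their shares of endothelial transcripts, so they may understate free RNA. Whether B cells made this or the other transcripts below themselves was not tested. In vehicle 0 of 173 and 0 of 215 thinned endothelial cells had a Cxcl10 UMI, which allows up to 2.11% and 1.70%.

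The promoters of these 3 genes and of Mt2, described below, are printed because each holds a match to at least 1 of the 3 motifs searched, and they were chosen for that among the 15 largest rises. Each is the 250 bases before the RefSeq start of the gene in GRCm38.p6, read in the gene's direction from 5′ to 3′, with motif matches in capitals. The motifs searched on both strands were the core of the interferon-stimulated response element (GAAA, any 2 bases, GAAA), the NF-kB motif (GGG, any 2 bases, then TTTCC or TTCCC), and a metal motif. The metal motif was 1 form of the core of the metal response element, TGCGCNC, and other forms were not searched. The first holds the interferon motif at -213 and the NF-kB motif at -103 relative to the start, the second an NF-kB match at -130, the third the interferon motif on the other strand at -120, and the fourth a metal motif at -128.
Cxcl10, chr5:92348890-92349139, minus strand: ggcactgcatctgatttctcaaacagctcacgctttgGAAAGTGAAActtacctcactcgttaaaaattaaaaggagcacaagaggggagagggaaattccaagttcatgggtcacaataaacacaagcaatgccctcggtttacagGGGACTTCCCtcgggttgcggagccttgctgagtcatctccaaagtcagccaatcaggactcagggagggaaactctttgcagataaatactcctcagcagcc
Cxcl9, chr5:92328080-92328329, minus strand: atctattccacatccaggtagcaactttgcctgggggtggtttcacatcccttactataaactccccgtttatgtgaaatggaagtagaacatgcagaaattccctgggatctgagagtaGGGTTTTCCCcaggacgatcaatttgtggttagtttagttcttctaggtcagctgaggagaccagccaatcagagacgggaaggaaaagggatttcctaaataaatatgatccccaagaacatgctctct
Rsad2, chr12:26456453-26456702, minus strand: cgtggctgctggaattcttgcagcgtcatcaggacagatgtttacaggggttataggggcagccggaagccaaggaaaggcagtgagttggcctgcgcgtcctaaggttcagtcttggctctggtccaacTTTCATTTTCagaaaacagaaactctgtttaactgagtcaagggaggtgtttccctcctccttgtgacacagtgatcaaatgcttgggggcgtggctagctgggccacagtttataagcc
Mt2, chr8:94172368-94172617, plus strand: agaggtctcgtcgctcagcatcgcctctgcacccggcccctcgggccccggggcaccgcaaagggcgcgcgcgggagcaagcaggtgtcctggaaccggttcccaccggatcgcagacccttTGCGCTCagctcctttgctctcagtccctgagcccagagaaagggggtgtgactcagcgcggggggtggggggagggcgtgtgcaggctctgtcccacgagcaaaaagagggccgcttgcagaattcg

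Among the promoters of genes tested, 3.43% of 8606 held the interferon motif, 4.18% the NF-kB motif and 25.5% the metal motif, and among all 27025 RefSeq promoters given these shares were 3.46, 3.25 and 14.0%. Of the list of interferon-stimulated genes, 11 of 26 with a promoter (42.3%) held the interferon motif and 1 (3.85%) the NF-kB motif. Of the chemokine list, 5 of 9 (55.6%) held the NF-kB motif and 1 the interferon motif. Of 9 promoters of adhesion genes 0 held either, and those of Sele, Selp and Icam1 had no match to these letters in this window. Of the 15 largest rises 12 had a promoter, and each of the 3 motifs was found in 2 of them (16.7%), a share above that of genes tested for the interferon and NF-kB motifs and below it for the metal motif. The promoter of Mt1, the neighbour of Mt2, had no match to the forms searched. It holds TGCACAC, which the search for TGCGCNC did not cover. These are descriptions of letters, not of sites that a factor was shown to bind.

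The 2 metallothioneins, small proteins that bind zinc and copper, were also among the 15 largest rises. Mt2 stood at 1.16 and 1.31 CPM with vehicle, 4585 and 4984 in KO LPS and 9402 and 9332 in WT LPS, a log2 change of 12.33 ± 0.13. Mt1 stood at 3.49 and 6.55 with vehicle, 7658 and 7893 in KO LPS and 13896 and 12818 in WT LPS CPM, a change of 11.04 ± 0.11. Both were lower in both KO LPS than in both WT LPS libraries. Other genes among the 15 largest rises follow. Csf2, the growth factor GM-CSF, was at 0 with vehicle, 216 and 206 CPM in KO LPS and 419 and 311 in WT LPS, at least 312-fold higher. Ch25h, the enzyme that makes 25-hydroxycholesterol, went from 0 to 169 and 226 CPM in KO LPS and 264 and 233 in WT LPS, and Adamts4, a protease that cuts proteoglycans, from 0 to 47.5 and 72.9 in KO LPS and 203 and 217 in WT LPS. Ackr1, the atypical chemokine receptor of venules that carries chemokines across the vessel wall, went from 0 to 77.0 and 135 in KO LPS and 177 and 219.7 in WT LPS, at least 165-fold higher. It had a UMI in only 1.8% of members over all libraries. Rnd1, a small GTPase that loosens the actin cytoskeleton, had 1 or 0 UMIs in the vehicle libraries and 251 and 269 CPM in KO LPS and 443 and 474 in WT LPS with LPS, a ratio of 1116 (95% counting interval 200.1 to 44075). The other genes among the 15 largest rises that endothelial cells held at least as highly as other barcodes included Abtb2 and Spsb1, at least 91.9- and 82.4-fold higher.

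Among the 15 largest falls, Glp1r, the receptor of glucagon-like peptide 1, went from 414 and 393 CPM to 24.9 and 36.7 in KO LPS and 3.39 and 5.48 in WT LPS, a log2 change of -5.11 ± 0.15. Hpgd, the enzyme that breaks down prostaglandins as blood passes the lung, went from 3531 and 3246 to 793 and 789.6 CPM in KO LPS and 126 and 81.7 in WT LPS, a change of -3.57 ± 0.11. Cavin2, a coat protein of caveolae, went from 1529.9 and 1792 to 179 and 197 in KO LPS and 84.2 and 54.8 in WT LPS, a change of -3.86 ± 0.11. In all 3 genes the KO LPS libraries lay between vehicle and WT LPS. Eln, the gene of elastin, changed by -4.10, Mfap2 of the elastic microfibrils by -3.95, Prickle1 by -4.35, Tox3 by -4.06 and Tspan18 by -3.95. The share of thinned cells with an Hpgd UMI was 96.5% and 93.5% in the KO and WT vehicle libraries, 30.7% and 25.5% in KO LPS and 5.42% and 6.53% in WT LPS, against 0.166 to 2.04% of B cells.

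**Figure D1:**
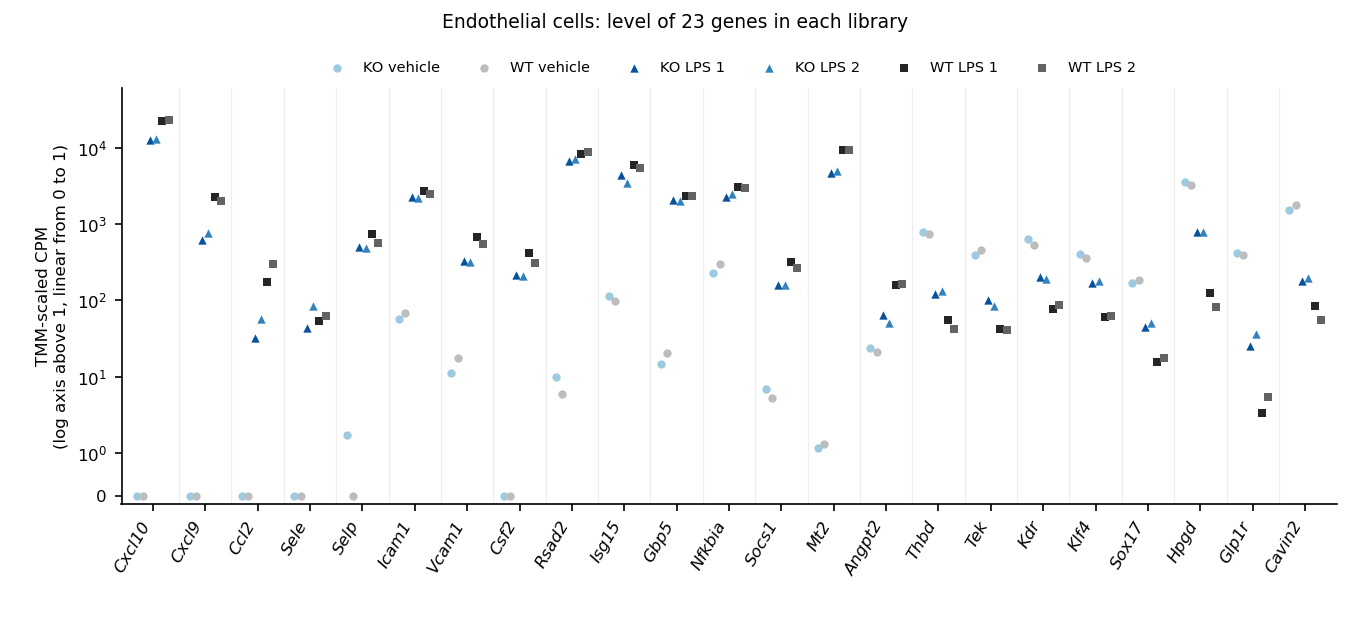
Levels of 23 genes in the endothelial cells of each library, as TMM-scaled CPM on a log axis with 1 point for each library coloured by group. Cxcl10 and Cxcl9 sit at 0 in both vehicle libraries, and Glp1r, Hpgd and Cavin2 show KO LPS points between the vehicle and the WT LPS points.

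Adhesion genes carry leukocytes from rolling to passage through the wall. P-selectin and E-selectin start rolling: Selp went from 1.74 and 0 CPM to 501 and 484 in KO LPS and 747 and 571 in WT LPS, a ratio of 609 (95% counting interval 208 to 2954), and Sele from 0 to 43.5 and 83.5 in KO LPS and 54.2 and 62.8 in WT LPS, at least 66.0-fold higher. ICAM-1 and VCAM-1 hold leukocytes through integrins. Icam1 went from 57.6 and 68.7 to 2237 and 2184 CPM in KO LPS and 2687 and 2470.0 in WT LPS, a log2 change of 5.24 ± 0.08, and Vcam1 from 11.05 and 17.7 to 323 and 322 in KO LPS and 672 and 551 in WT LPS, 4.98 ± 0.15. Every LPS library was above every vehicle library in these 4. Icam1 had a UMI in 73.0% and 72.3% of thinned KO LPS cells and 79.6% and 77.4% of WT LPS cells, against 6.36% and 7.91% with vehicle, while Selp was found in 19.5 to 22.3% and Sele in 2.3 to 5.3% of LPS cells. The junctional partners moved the other way or less, with Pecam1 at 1104 and 1134 CPM with vehicle, 1048 and 989 in KO LPS and 552 and 537 in WT LPS (-0.59), Icam2 at -0.62 and F11r, the gene of JAM-A, at 2.56. Pecam1 gave -0.13 and was not called without the WT vehicle library, which is the change within KO alone. Of 16 adhesion genes tested 9 rose and 4 fell, with a median of 1.02 on the log2 scale where that of all genes was -0.01.

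Of 14 chemokines and chemokine receptors tested 12 rose and 1 fell, with a median of 7.02, or 4.55 with genes at 0 in vehicle set at their bound. Cxcl1, which draws neutrophils, went from 0.581 and 0.655 CPM to 127 and 176 in KO LPS and 377 and 364 in WT LPS, and Ccl2, which draws monocytes, from 0 to 32.5 and 56.8 in KO LPS and 176 and 302 in WT LPS, at least 154-fold higher. Cx3cl1, the membrane-bound fractalkine, changed by 2.86, Cxcl16 by 3.93, Ccl5 by 3.8 and the scavenging receptor gene Ackr3 by 3.45. The member that fell was Cxcl12, the homeostatic chemokine that holds leukocytes through CXCR4, from 283 and 176 to 96.7 and 87.9 CPM in KO LPS and 67.8 and 49.3 in WT LPS (-1.60 ± 0.11). Some of these transcripts were higher in other barcodes of the LPS libraries than in endothelial cells on plain totals, as mean CPM over the 4 libraries: Cxcl2 at 6782 against 426 and Ccl5 at 3278 against 156. Cxcl10 and Cxcl9 were higher in the endothelial cells, at 15313 against 3773 and 1194 against 88.7 CPM.

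Of 14 cytokines and growth factors 12 rose and 1 fell, with a median of 4.84 (3.24 with bounds). Inhbb, the activin B subunit, went from 1.74 and 1.31 CPM to 412 and 386 in KO LPS and 815 and 838 in WT LPS, a change of 8.51 ± 0.16, and stood at 524 CPM in endothelial cells against 12.5 in other barcodes on plain totals. Csf1, which sustains macrophages, changed by 3.5 and Il15, which sustains NK cells, by 4.64. Csf3, the neutrophil growth factor G-CSF, was at 0 with vehicle and at least 48.9-fold higher with LPS. Il6 was at 0 with vehicle, at 3.65 and 6.12 CPM in KO LPS and at 4.52 and 12.5 in WT LPS, at least 7.24-fold higher. It was higher in other barcodes, at 18.0 against 5.74 CPM on plain totals, and had a UMI in 0.686% and 1.09% of thinned KO LPS and 0 and 1.48% of WT LPS members, against 0.157 to 0.698% of B cells. Bmp4 changed by -1.08, or -0.48 and not called within WT alone, without the KO vehicle library. Tnfsf10, the gene of the death ligand TRAIL, rose by 1.47.

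The gene of the LPS receptor itself did not pass the test, and those of its partners did. Tlr4 was at 9.30 and 9.16 CPM with vehicle, 15.2 and 13.9 in KO LPS and 14.1 and 14.0 in WT LPS, with a log2 change of 0.63 that missed the threshold (adjusted p = 0.0589). Cd14 went from 2.33 and 2.62 to 117 and 114 CPM in KO LPS and 441 and 326 in WT LPS (6.38 ± 0.26), Ly96, the gene of MD-2, rose by 2.19, Myd88 by 3.95 and Tlr2, a receptor of bacterial lipoproteins, by 6.21. Other barcodes of the LPS libraries held more of both receptors on plain totals, 1288 against 212 CPM for Cd14 and 287 against 186 for Tlr2. Of 20 genes of LPS sensing and of cytokine receptors 13 rose and 2 fell (11 and 4 on plain totals). Of the list of NF-kB subunits, inhibitors and feedback genes all 19 tested rose, with a median of 3.88, or 3.53 with bounds. Nfkbia, whose product holds NF-kB in the cytoplasm, went from 229.7 and 296 to 2259 and 2472 CPM in KO LPS and 3084 and 2990.2 in WT LPS (3.36 ± 0.07), and Tnfaip3, the gene of the inhibitor A20, from 6.98 and 14.4 to 319 and 292 in KO LPS and 484 and 475 in WT LPS (5.25 ± 0.13). Tnip1 changed by 5.54, Bcl3 by 5.53 and Rela, the NF-kB subunit p65, by 1.62.

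SOCS proteins shut down cytokine receptors, and SOCS1 in particular ends interferon signalling through JAK kinases. Socs1 went from 6.98 and 5.24 CPM to 160.0 and 157 in KO LPS and 314 and 266 in WT LPS, a change of 5.13 ± 0.17. Socs3 went from 106 and 159 to 411 and 437 CPM in KO LPS and 804 and 877 in WT LPS, 2.20 ± 0.08. Of 14 genes of the SOCS and JAK list 13 rose and 0 fell, among them Jak2 (3.05), Socs2 (3.26) and Usp18 (6.08), which blocks the type I interferon receptor. All 30 interferon-stimulated genes rose, with a median of 5.10. Isg15, a ubiquitin-like tag, went from 116 and 98.8 to 4324 and 3435 CPM in KO LPS and 5846 and 5482 in WT LPS, and Irf7, which amplifies interferon production, from 20.4 and 15.7 to 680.2 and 699 in KO LPS and 1163 and 1194 in WT LPS. In both genes each KO LPS library was below each WT LPS library. Ifit3, which binds viral RNA, changed by 6.5 and Gbp5, a guanylate-binding protein, by 6.98.

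Genes that present antigen rose as a set of 19 of 20, with 0 that fell and a median of 2.40. H2-K1, a class I heavy chain, went from 914 and 1183 CPM to 2968 and 2857 in KO LPS and 4864 and 4787 in WT LPS (1.85 ± 0.06), and its partner B2m from 1128 and 1390.3 to 3757 and 3203 in KO LPS and 6215 and 5938 in WT LPS (1.88 ± 0.08). Tap1, which pumps peptides, rose by 3.91 and Cd274, the gene of the T cell inhibitor PD-L1, by 6.40. Cd74, the chain that guides class II molecules, was at 57.6 CPM in KO vehicle and 239.6 in WT vehicle, 388 and 296 in KO LPS and 1723 and 1319 in WT LPS (2.62 ± 0.15). The 2 vehicle libraries differed in Cd74, with a KO to WT ratio of 0.240 (0.19 to 0.301) that covers counting error only, and the KO LPS values lay only a little above that of WT vehicle.

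**Figure D2:**
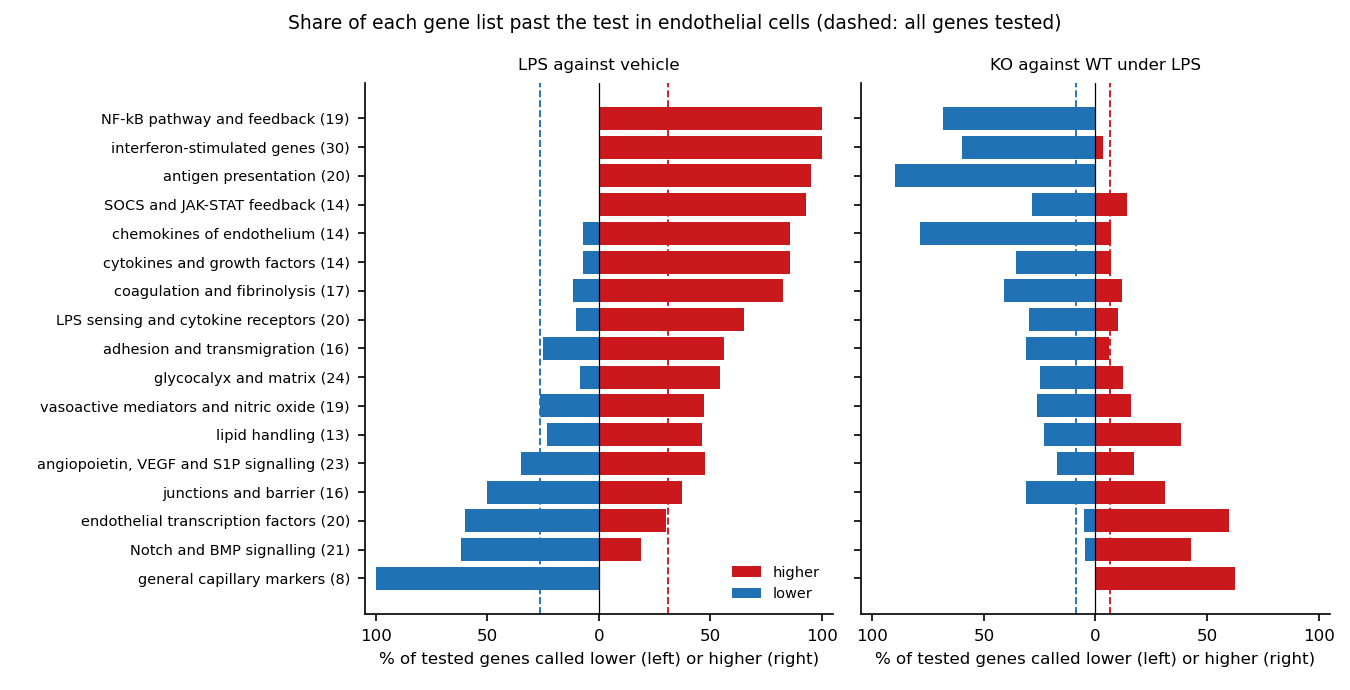
Share of the tested members of 17 gene lists that rose or fell under LPS in endothelial cells, in percent, with dashed lines at the shares of all 10929 genes tested, 30.9% higher and 26.4% lower. The NF-kB and interferon lists rose in full, and the transcription factor and Notch lists fell in most members.

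On the coagulation list 14 of 17 rose and 2 fell, with a median of 2.47. Thbd, the gene of thrombomodulin, which turns thrombin to an anticoagulant role, went from 782 and 735 CPM to 120.5 and 133 in KO LPS and 55.4 and 42.4 in WT LPS, a fall with a log2 change of -3.27 ± 0.09. Tfpi, the inhibitor of the tissue factor pathway, changed by -0.91. F3, tissue factor itself, went from 0 to 5.17 and 6.12 CPM in KO LPS and 9.60 and 30.4 in WT LPS, at least 13.9-fold higher, with the second WT library above the rest. Plat, which starts the dissolving of clots, rose by 3.85 and Plaur, the urokinase receptor, by 2.96. Procr, the protein C receptor, had a ratio of 32.0 (95% counting interval 10.8 to 156). Vwf, which tethers platelets, changed by 0.78, a call that was lost on plain totals and within KO alone, without the WT vehicle library. Platelet markers rose in the members as well, 5 of 6 tested, and their part in this list was not tested as such.

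Of 16 junction and barrier genes tested, without the rule genes Cldn5 and Cdh5, 6 rose and 8 fell, or 4 and 11 on plain totals. Of all genes 30.9% rose and 26.4% fell. Their median was -0.14. As a description, since the rule chose on them, Cldn5 of the tight junction was at 1724 and 2057 CPM with vehicle, 2002 and 2079 in KO LPS and 3021 and 2925 in WT LPS, and Cdh5, VE-cadherin of the adherens junction, at 1501 and 1334 with vehicle, 2322 and 2197 in KO LPS and 2988 and 2843 in WT LPS. Calcrl, receptor of adrenomedullin and related peptides, was at 2109.6 and 1804 with vehicle, 570.4 and 521 in KO LPS and 166 and 148 in WT LPS CPM and its partner Ramp2 at 2189 and 2411 with vehicle, 586 and 585 in KO LPS and 161 and 153 in WT LPS. Among genes that the rule left alone, Ocln, the gene of occludin, fell by 1.53, Cav1 of the caveolae went from 1041 and 1072 to 288 and 259.9 CPM in KO LPS and 131 and 156 in WT LPS (-2.41 ± 0.08), and Ptprb, the phosphatase of VE-cadherin, fell by 2.67. Gja1, the gap junction gene of connexin 43, rose by 3.88, Robo4, which steadies the barrier, by 2.39 and Rasip1, which keeps the vessel lumen open, by 2.28.

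Angiopoietin 1 steadies vessels through the receptor TIE2, and angiopoietin 2 opposes it. Angpt2 went from 23.8 and 20.9 CPM to 64.5 and 51.2 in KO LPS and 159 and 166 in WT LPS (2.12 ± 0.15), and Tek, the TIE2 gene, from 393 and 449.7 to 100.4 and 83.5 in KO LPS and 41.8 and 41.4 in WT LPS (-2.76 ± 0.09). Kdr, the main VEGF receptor, went from 638 and 534 to 204 and 189 CPM in KO LPS and 78.0 and 85.7 in WT LPS (-2.20 ± 0.07). S1pr1, a barrier-tightening receptor of sphingosine-1-phosphate, went up, from 441 and 424 to 2243 and 2174 CPM in KO LPS and 2415 and 2418 in WT LPS (2.42 ± 0.06). Sphk1, which makes that lipid, was at 0 with vehicle and at least 70.4-fold higher, and Spns2, which exports it, fell by 2.65. Over the 23 tested genes of this signalling list 11 rose and 8 fell, or 9 and 12 on plain totals, beside 30.9% and 26.4% of all genes.

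Notch and BMP signals and a group of transcription factors keep the endothelial state. Of 21 Notch and BMP genes 4 rose and 13 fell (2 and 18 on plain totals), with a median of -0.60. Hey1, a Notch target, went from 100.01 and 130.3 CPM to 43.2 and 36.2 in KO LPS and 5.08 and 1.99 in WT LPS (-3.26 ± 0.18), Smad7, which limits BMP and TGF-beta signals, from 354 and 384 to 183 and 186 in KO LPS and 59.9 and 61.8 in WT LPS (-1.80 ± 0.07), and the ligand gene Jag2 fell by 4.19 while Dll1 rose by 3.34. Of 20 transcription factors 6 rose and 12 fell (1 and 13 on plain totals). Sox17 went from 170.4 and 183 to 44.4 and 50.6 CPM in KO LPS and 15.8 and 17.4 in WT LPS (-2.65 ± 0.11), Klf4, a factor induced by blood flow, from 401 and 363 to 168 and 177 in KO LPS and 61.0 and 62.3 in WT LPS (-1.89 ± 0.07), and its relative Klf2 from 894 and 739.7 to 689 and 755 in KO LPS and 475 and 476 in WT LPS (-0.47 ± 0.06). Sox18 changed by -2.23, Erg by -0.76, Epas1, the gene of HIF-2alpha, by -0.71 and Foxf1, a lung capillary factor, by -0.65. Without the WT vehicle library, and so within KO alone, Foxf1 gave -0.094 and was not called. In Sox17, Klf4, Hey1 and Smad7 both KO LPS libraries lay between vehicle and WT LPS.

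Nitric oxide relaxes vessels, and the endothelial enzyme is NOS3. Nos3 was at 18.0 and 25.5 CPM with vehicle, 19.2 and 21.7 in KO LPS and 22.0 and 26.9 in WT LPS, with a log2 change of 0.05 (adjusted p = 0.838) that became -0.55 on plain totals. Nos2, the inducible enzyme, went from 5.23 and 5.24 to 28.3 and 19.5 CPM in KO LPS and 77.4 and 66.8 in WT LPS (2.99 ± 0.27), on 9 and 8 UMIs with vehicle and 35 to 137 with LPS. Its mean was 40.8 CPM in endothelial cells and 98.9 in other barcodes of the LPS libraries on plain totals. Gch1, which makes the cofactor of these enzymes, rose by 3.70 and Ass1, which renews their substrate arginine, by 1.79. Edn1, the constrictor endothelin 1, went from 154 and 125 to 282 and 321 CPM in KO LPS and 398 and 417 in WT LPS (1.33 ± 0.09) and its clearing receptor gene Ednrb fell by 1.32. Ace, angiotensin-converting enzyme, went from 741 and 732 to 542 and 512 CPM in KO LPS and 258 and 229 in WT LPS (-1.04 ± 0.07). Ptgs2, the inducible cyclooxygenase, had a ratio of 195 (95% counting interval 34.8 to 7700.3). Over 19 vasoactive genes 9 rose and 5 fell, 8 and 9 on plain totals, where 30.9% of all genes rose and 26.4% fell. Fewer of them fell within KO alone, with the WT vehicle library left out.

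The list counts in this paragraph stand beside 30.9% of all genes that rose and 26.4% that fell. Of 24 glycocalyx and matrix genes 13 rose and 2 fell (9 and 6 on plain totals). Timp3, an inhibitor of matrix proteases, went from 274 and 246 CPM to 3427 and 3299 in KO LPS and 4886 and 5148 in WT LPS (3.98 ± 0.07). Sdc4, a heparan sulphate proteoglycan, rose by 4.01 and Col4a1 of the basement membrane by 1.79, and Has2, which makes hyaluronan, had a ratio of 97.1 (95% counting interval 17.3 to 3850.1). Of 13 lipid genes 6 rose and 3 fell (4 and 4 on plain totals). Gpihbp1, which carries lipoprotein lipase to the capillary surface, went from 975 and 909.8 to 591 and 654 CPM in KO LPS and 370.0 and 349.8 in WT LPS (-0.99 ± 0.07), Cd36, a fatty acid receptor, fell by 0.75, and Angptl4, which blocks the lipase, rose by 4.21. Of 11 genes of the glucocorticoid response 9 rose and 2 fell, with Fkbp5 at 5.85. Lyve1, a hyaluronan receptor often used for lymphatic vessels, went from 709 and 696 to 3934 and 3916 CPM in KO LPS and 4863 and 5199 in WT LPS (2.66 ± 0.06). It had a UMI in 86.8% of members, where the lymphatic factor Prox1 had one in 1.6%. All 8 markers of general capillaries fell, and of 8 aerocyte markers 5 fell and 1 rose. Of 18 immediate-early genes, which enzymatic digestion is known to raise, 10 rose and 2 fell (5 and 6 on plain totals).

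The neutrophil and acute-phase transcripts Lcn2, Saa3 and S100a8 were higher in other barcodes under LPS. On plain totals they stood at 14860, 6696 and 23950 CPM there, against 2941, 449 and 369 in endothelial cells. The member rule capped S100a8, and the same cap was set for the B cells below. S100a8 was found in 28.8% and 16.4% of thinned KO LPS and 35.0% and 27.9% of WT LPS members, against 38.1, 23.2, 34.6 and 34.1% of B cells of the same libraries. Saa3 was found in 15.6, 9.49, 26.3 and 24.0% of members against 15.8, 11.7, 30.9 and 29.3% of B cells. Both shares were thus at or below those of B cells, apart from S100a8 in WT LPS replicate 1, which was higher by less than 1 percentage point. Lcn2 was found in 49 to 69% of endothelial cells under LPS and 24 to 44% of B cells.

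KO and WT endothelial cells were compared under LPS, 2 libraries against 2. Of 10929 genes 711 (6.51%) were higher in KO and 935 (8.56%) lower. The split depended on scaling, with 43.2% of calls higher in KO, 61.9% on plain totals (1050 higher and 646 lower) and 35.4% with DESeq2 size factors (596 and 1088). The median of all genes was 0.02, or 0.13 on plain totals. Leaving out KO LPS replicate 1 left 608 lower genes. In Xist-marked cells alone, 259 of 10228 genes (2.53%) were higher and 162 (1.58%) lower, and 290 of the 1646 calls kept both call and sign. The median size of the change over those 1646 genes, as far as tested, went from 0.70 to 0.37 on the log2 scale. Both KO libraries were above both WT libraries in 29.1% of genes and below in 28.0%.

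Myzap, a protein of endothelial and cardiac junctions, was at 129 and 136 CPM in KO LPS and 10.2 and 14.5 in WT LPS, with 429 and 479 CPM in vehicle, a KO to WT change of 3.41 ± 0.15 that was 0.57 in Xist-marked cells. Hpgd had a change of 2.94 ± 0.15 and of -0.08 in Xist-marked cells, Clec1a of 3.06 and 0.20, and Clec14a, a lectin of vessel walls, of 2.04 and -0.13. Adrb1, Zfp503, Frmd6 and Jup went from 2.43, 2.56, 2.21 and 2.18 to 0.53, 0.09, 0.29 and 0.75. Peg3, an imprinted gene, was at 29.1 and 14.4 CPM with vehicle, 97.0 and 126 in KO LPS and 19.2 and 19.9 in WT LPS, with a change of 2.49 ± 0.18 and of 2.28 ± 0.27 in Xist-marked cells. Elk3 kept part of its change, 2.72 against 1.10, but missed the threshold (adjusted p = 0.135).

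Of the 10 genes furthest below WT in KO, 4 are on the platelet marker list: Pf4, Ppbp, Gp9 and Clec1b. The others were Treml1, Tuba4a, Tpm2, Myl9, Prkar2b and Ubd, and how far platelets gave rise to them was not tested. Pf4 was at 88.2 and 152 CPM in KO LPS and 1249 and 245 in WT LPS, so that WT LPS replicate 1 stood well above the other 3, and its change was -2.67, or -3.91 in Xist-marked cells. Ppbp, Gp9 and Clec1b changed by -3.87, -2.67 and -1.99, and by -4.72, -3.49 and -3.75 in Xist-marked cells. Treml1, another gene among the 10, changed by -3.31 and -3.96. Without WT LPS replicate 1 these changes were smaller, -1.07 for Pf4, -2.27 for Ppbp, -1.33 for Gp9, -1.60 for Treml1 and -0.94 for Clec1b. Clec1b was then no longer called, as without KO LPS replicate 1. A platelet marker UMI was present in 9.09% of KO vehicle, 23.1% and 13.4% of KO LPS, 12.7% of WT vehicle, and 27.8% and 20.1% of WT LPS members. Without those members 543 genes were higher in KO and 798 lower, and the sign of Prkar2b turned. The red cell marker list went the other way, with 5 of 5 tested genes higher in KO and a median of 4.32. In Xist-marked cells 0 of its 4 tested genes were called, with a median of 3.13. Ubd, a ubiquitin-like gene induced by interferon gamma and TNF, was at 22.8 and 17.8 CPM in KO LPS and 158 and 102 in WT LPS. Its change was -2.63 ± 0.23, and -1.95 in Xist-marked cells.

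Most genes of antigen presentation were lower in KO. Of 20 antigen presentation genes 18 were lower and 0 higher (13 lower on plain totals), with a median of -0.47, and in Xist-marked cells 11 were lower and 0 higher, with a median of -0.37. Cd74 changed by -2.14 ± 0.15 and by -1.55 ± 0.13 in Xist-marked cells, H2-K1 by -0.73 ± 0.06 and -0.53, and B2m by -0.80 ± 0.08 and -0.59. Ido1, which breaks down tryptophan, was at 1.16 and 1.31 CPM with vehicle, 113 and 87.9 in KO LPS and 392 and 370.2 in WT LPS, a change of -1.90 ± 0.12 and of -1.52 ± 0.13 in Xist-marked cells. Of the 30 interferon-stimulated genes 18 were lower and 1 higher, but 8 were lower on plain totals, 10 without KO LPS replicate 1, and 4 lower and 4 higher in Xist-marked cells. Irf7 (-0.77 and -0.54) and Zbp1, a sensor of Z-form nucleic acids (-0.72 and -0.67), were lower in both fits, while Rsad2 was called in opposite directions, -0.30 in all cells and 0.25 in Xist-marked ones, and the first call was lost without KO LPS replicate 1 (-0.25).

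Of 14 chemokine genes 11 were lower in KO and 1 higher, with a median of -1.06, and in Xist-marked cells 3 of 13 were lower and 0 higher, with a median of -0.38. Cxcl9 changed by -1.63 ± 0.10 and by -0.87 ± 0.13 in Xist-marked cells, and Ccl2 by -2.49 ± 0.28 and -1.60 ± 0.26. Cxcl10 changed by -0.83 ± 0.05 in all cells and by -0.10 ± 0.06 in Xist-marked cells (adjusted p = 0.367). Of 19 NF-kB genes 13 were lower (7 without KO LPS replicate 1), and 0 lower and 1 higher in Xist-marked cells, with Nfkbia at -0.36 and 0.13. Mt1 and Mt2 changed by -0.78 and -0.97, and by 0.06 and -0.18 in Xist-marked cells. Cd14 stayed lower, -1.73 and -1.23. Socs1 changed by -0.87 and by -0.35 in Xist-marked cells (adjusted p = 0.164), and Socs3 by -0.99 and -0.35 (adjusted p = 0.0374).

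Genes of the vessel wall were divided. Icam1 missed the threshold, with a change of -0.22 (adjusted p = 0.0537) and of 0.23 in Xist-marked cells (adjusted p = 0.103), and Vcam1 changed by -0.92 and by -0.33 in Xist-marked cells (adjusted p = 0.231). Selp changed by -0.42 in all cells, a call lost when KO LPS replicate 1, KO LPS replicate 2 or WT LPS replicate 1 was left out (-0.21 in the last case), and gave 0.46 in Xist-marked cells (adjusted p = 0.074). Angpt2 was lower in KO in both fits, -1.47 ± 0.13 and -1.25 ± 0.14, as was Adamts4 (-1.85 and -1.0). Pecam1 (0.90 and 0.55), Cd93 (0.64 and 0.72), Cav1 (0.93 and 0.68), Gpihbp1 (0.79 and 0.95), Cd36 (0.79 and 0.81), Ace (1.12 and 0.53) and Glp1r (2.71 and 2.05) were higher in both. Thbd, Kdr, Klf4, Hey1, Smad7 and Sox17 changed by 1.37, 1.26, 1.48, 3.52, 1.60 and 1.49 in all cells, and by 0.17, 0.33, 0.33, 0.16, 0.19 and -0.39 in Xist-marked cells, where none of these 6 passed the test. Of the 20 transcription factors 12 were higher in KO and 1 lower, and in Xist-marked cells 5 of 19 higher and 0 lower. Of 21 Notch and BMP genes 9 were higher and 1 lower, and 0 and 1 in Xist-marked cells.

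Nos2 was lower in KO LPS, with a change of -1.54 ± 0.20 that was -1.11 in Xist-marked cells (adjusted p = 0.0602). Around Nos1, at chr5:117781032-117958840 in mm10, 182 genes within 10 Mb on either side were tested. Of these 8 were higher and 20 lower in KO, 15.4% against 15.1% of all genes, and in Xist-marked cells 4 of 168 were called, 2.38% against 4.12%. Those 4 all lay on the same side of Nos1, between 118027743 and 120907521. Whether they are linked to the locus was not tested. In vehicle there was 1 library of each genotype and no test was made. The KO to WT ratio of CPM there, with an interval that covers counting error only, was 1.09 (1.05 to 1.13) for Hpgd, 0.838 (0.630 to 1.11) for Icam1, 1.06 (0.982 to 1.15) for Thbd, 1.05 (0.944 to 1.18) for Glp1r and 0.973 (0.912 to 1.04) for Pecam1.

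Y-marked and Xist-marked cells of the KO LPS libraries were then set side by side within each library, a comparison added after the data were seen, fitted with the library as a block on 1 residual degree of freedom. Of 7698 genes tested 1250 (16.2%) were higher in Y-marked and 1514 (19.7%) lower. Y-marked cells were deeper, with median UMIs of 10125 and 7566 against 6129 and 5768. Cxcl10 was at 3493 and 2799 CPM in the Y-marked and 21006 and 20271 in the Xist-marked KO cells, with 22439 and 22509 in Xist-marked WT LPS cells, a difference of -2.67 ± 0.06 on the log2 scale between the KO kinds. Hpgd was at 1489.7 and 1598 CPM in Y-marked and 102 and 94.7 in Xist-marked KO cells, with 128 and 86.0 in WT LPS and 3714 in Xist-marked KO vehicle cells, a difference of 4.01 ± 0.09. In both genes Xist-marked KO cells lay near the WT LPS values and Y-marked cells toward the vehicle values. Thinned, 65.6% and 80.0% of Y-marked and 6.12% and 6.20% of Xist-marked cells had an Hpgd UMI.

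Other genes of the LPS response differed as well, each with an adjusted p under 0.05. Mt1 was at 1252 and 1402 CPM in Y-marked and 13099.9 and 12352 in Xist-marked KO LPS cells (-3.21), and Selp at 45.7 and 50.9 in the former against 915 and 834 in the latter (-4.15). Vcam1 differed by -2.52, Icam1 by -1.10, Tnfaip3 by -2.30, Socs1 by -1.63, Socs3 by -1.68 and Nfkbia by -1.19, all lower in Y-marked cells. Isg15 and Ifit3 differed less, by -0.62 and -0.59. Among genes chosen for mention after their values were seen, these were higher in Y-marked cells: Kdr at 289 and 311 against 109 and 94.7 CPM (1.59), Thbd at 188 and 257 against 59.5 and 49.6 (2.01), Hey1 by 4.89, Sox18 by 3.42, Klf4 by 1.92 and Klf2 by 1.74. For Cd74, Ido1 and B2m, which were lower in KO in both fits above, the levels in Xist-marked cells follow. They come from the same cells as the Xist-marked fit and are no further evidence. Cd74 was at 539 and 423 CPM in Xist-marked KO LPS and 1626 and 1238 in Xist-marked WT LPS cells. Ido1 was at 145 and 109 against 384 and 364, and B2m at 4184 and 3384 against 5899 and 5654. The labels do not say whether Y-marked and Xist-marked cells of 1 library came from animals handled alike, and sex and animal cannot be told apart here.

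**Figure D3:**
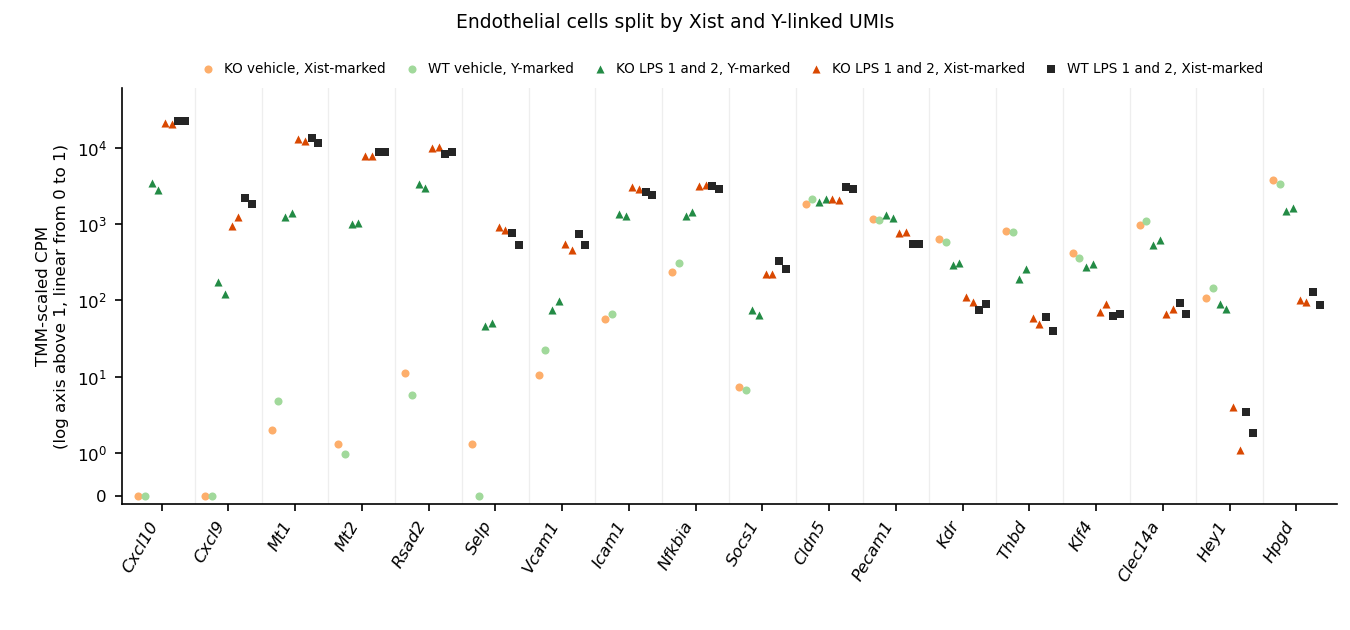
Levels of 18 genes in Y-marked and Xist-marked endothelial cells of the vehicle and LPS libraries, as CPM on a log axis, with 1 point for each library and kind of cell. Y-marked KO LPS cells hold 3493 and 2799 CPM of Cxcl10 where Xist-marked ones hold 21006 and 20271, and lie on the vehicle side for Hpgd and Thbd.

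In all members the LPS response differed between genotypes, called higher in KO for 176 genes (1.61%) and lower for 71 (0.65%). The KO LPS libraries include Y-marked cells, which lay toward the vehicle values in Cxcl10 and Hpgd, and the WT LPS libraries do not. Adgrl4, an adhesion receptor of vessels, was at 499 and 664 CPM in the vehicle libraries of KO and WT, 309.7 and 293 in KO LPS and 101 and 98.2 in WT LPS, a difference of 2.02 ± 0.14. Pde4b, which breaks down cyclic AMP, was at 178 and 93.6 with vehicle, 526 and 505 in KO LPS and 968 and 940.3 in WT LPS CPM, -1.81 ± 0.14. Thbd (1.28), Tek (1.35), Klf4 (1.34) and Pecam1 (0.94) had a less negative response in KO, and Angpt2 a smaller rise (-1.65). This fit rests on 1 vehicle library a genotype, the WT one Y-marked and the KO one Xist-marked. No Xist-marked WT vehicle cells exist for a matched form. In Xist-marked cells under LPS, the KO to WT changes of Thbd and Klf4 given above were not called. Pecam1 stayed higher and Angpt2 lower in KO there.

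Members were divided by at least 2 UMIs of aerocyte or general capillary markers into aerocyte-like cells, 47 in KO vehicle, 66 and 46 in KO LPS, 49 in WT vehicle, and 51 and 82 in WT LPS, and general-capillary-like cells, 129, 330 and 207, 177, and 150 and 220. This is a range on a score: 22, 58, 31, 25, 58 and 56 cells fell in neither class and 26, 75, 36, 27, 71 and 83 lay near the dividing line, and many of these markers themselves fell under LPS. The aerocyte markers counted were Car4, Ednrb, Fibin, Tbx2 and Apln, and Car4 had the most UMIs of them in every LPS library. On plain totals Car4 was at 233 and 234 CPM in KO LPS and 490 and 373 in WT LPS members. Other barcodes of these libraries held 266, 245, 468 and 399 CPM. How far Car4 RNA of other cells entered the aerocyte-like class was not tested. The difference between the subsets in their LPS response passed the test for 24 of 8669 genes higher in aerocyte-like cells (0.277%) and 23 lower (0.265%). Without the KO vehicle library these were 3 and 2, and without the WT vehicle library 5 and 5. Alas1, the first enzyme of haem synthesis, went from 36.2–43.5 CPM to 206–376 in aerocyte-like cells and from 62.3–71.2 to 77.9–141 in general-capillary-like cells, a difference of 2.04 ± 0.30. Ifitm3, a membrane protein that blocks virus entry, started lower in aerocyte-like cells, 775–838 against 1675–1695 CPM, and reached 9369–14786 against 11394–15719 with LPS (0.85). Igfbp7, a secreted protein of capillaries, went from 3153–3601 to 5196–6814 CPM in aerocyte-like and from 366–459 to 1689.5–2288 in general-capillary-like cells (-1.53 ± 0.15). Sema7a, a membrane semaphorin, went from 155–158 to 741–900.4 and from 32.8–40.8 to 527–802 (-1.81). Kdr started higher in aerocyte-like cells, 1135–1398 against 410.5–431 CPM, and fell to 98.2–237.8 against 65.5–198 (-1.24). Icam1 and Nfkbia gave differences of -0.35 (adjusted p = 0.679) and -0.05 (adjusted p = 0.966). The call of Alas1 was lost when either vehicle library was left out, and those of Sema7a and Kdr when the KO one was.

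**Figure D4:**
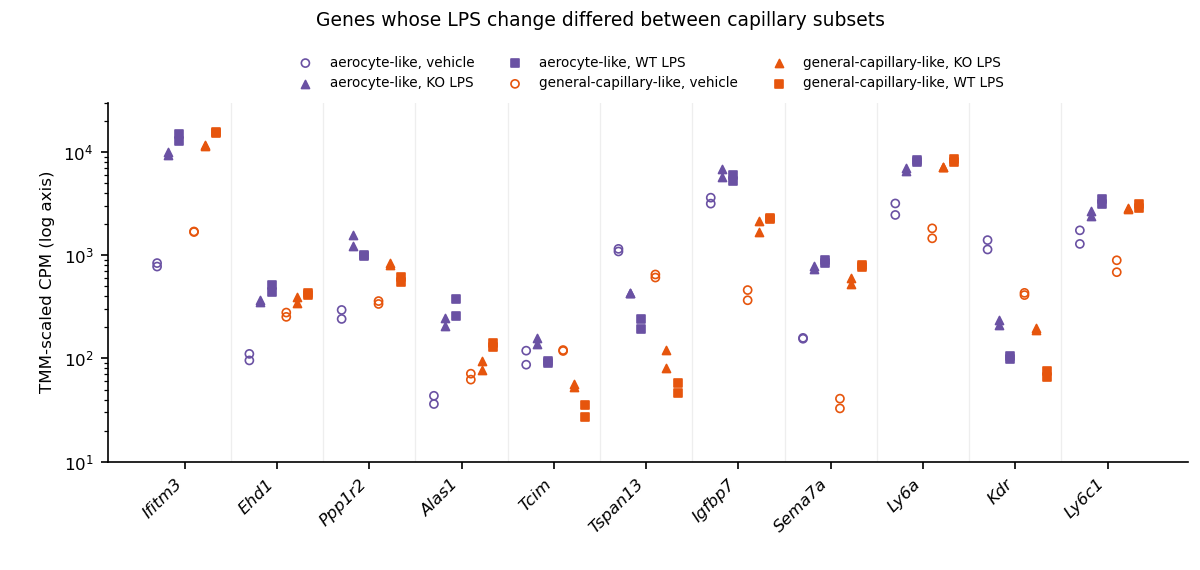
Levels of 11 genes in aerocyte-like and general-capillary-like endothelial cells with vehicle and LPS, as CPM on a log axis, with 1 point for each library. Ifitm3 and Alas1 climb further in aerocyte-like cells, and Igfbp7 and Sema7a climb further in general-capillary-like cells, from a lower start.

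The endothelial response was last set against that of 210 stromal cells from the same libraries (44 in KO vehicle, 66 and 33 in KO LPS, 21 in WT vehicle, 24 and 22 in WT LPS), with the library as a block. The response was higher in endothelial cells for 296 of 9845 genes (3.01%) and lower for 180 (1.83%), or 110 and 73 without the KO vehicle and 145 and 73 without the WT vehicle library. Akap12, a scaffold of protein kinase A, went from 232–241 to 7439.6–9308 CPM in endothelial cells and from 86.1–139.6 to 236–284 in stromal cells, a difference of 3.94 ± 0.33. Timp3 went from 257–288 to 3336–5178 CPM in endothelial and from 713–886 to 487–1114 in stromal cells (4.11). Mt1 reached more in stromal cells, 7744–14014 CPM in endothelial and 27540.1–58736 in stromal cells, from 3.66–6.85 and 187–407, and its response was higher in endothelial cells by 3.77. Nrp1, a co-receptor of VEGF and semaphorins, went from 464–595 to 72.7–129 CPM in endothelial and from 127 to 141–263 in stromal cells (-3.11). Vcam1 and Socs3 responded more in endothelial cells, by 1.45 (adjusted p = 0.0364) and 1.21 (adjusted p = 0.0455), while Icam1 and Nfkbia gave -0.61 (adjusted p = 0.639) and -0.63 (adjusted p = 0.28).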

How the data were processed

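Whole lungs had been digested, filtered, freed of red cells and selected for CD45, per the labels' protocols. The authors' deposited matrices hold UMI counts per gene and barcode, made with Cell Ranger 6.1.0 on mm10 and used with Seurat 4.1.0 in R 4.1.3, per the submitters' processing notes. The filtered matrices were read as deposited, with no doublet caller and no correction for free RNA; the exclusions of the member rule limit, but do not remove, UMIs of leukocyte and stromal genes. Free RNA is not removed, so low shares were set against B cells (at least 4 UMIs of B cell markers).

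Members' counts were summed per library and fitted with edgeR 4.0.16 in R 4.3.3 (quasi-likelihood test, TMM, filterByExpr by group, 1 coefficient for each of 4 groups, 2 residual degrees of freedom, adjusted p under 0.05). DESeq2 1.42.0 was an alternative. The subset and stromal comparisons used a library block. The fits were tested on simulated data. Replicates differed by more than counting noise (chi-square per degree of freedom 2.96 in KO and 3.12 in WT). Of 32285 gene identifiers 32158 had a position in GENCODE M21. Intervals cover counting error only.

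The members and gene lists were chosen with earlier results of these data known, so counts over a list are descriptions. Genes were named by a rule: the 15 largest rises and falls with LPS and the 10 largest between genotypes with at least 50 CPM, adjusted p under 0.05, no overlap of libraries and a level at least that of other barcodes; the 6 smallest p in each direction of the other comparisons; and from each list up to 6 largest and 3 smallest changes, beside a fixed set. Some genes that the rule names are not reported here. Further members of the lists were chosen for mention after their values were seen.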

Additional observations from a re-analysis of the deposited data

Results flagged for a closer look

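Genes of 3 comparisons differed in their LPS response between groups by a test of the difference itself. Between genotypes (KO minus WT, log2 scale), the response was higher in KO for Myzap (3.57), Clec1a (3.18), Adgrl4 (2.02), Adrb1 (2.46), Thbd (1.28), Tek (1.35), Klf4 (1.34) and Pecam1 (0.94). It was lower for Pde4b (-1.81), Angpt2 (-1.65), Jpt1 (-1.33), Srgn (-1.07), Lgals9 (-0.97) and Marcks (-0.91). The sex-linked genes Ddx3y (20.07) and Xist (-13.00) were called as well. These 2 values are fits against libraries at or near 0 and measure which libraries hold Y-marked or Xist-marked cells. The other genes were compared in Xist-marked cells only for KO against WT under LPS. There the changes of Myzap, Clec1a, Adrb1, Thbd and Klf4 given above were smaller than in all members. Thbd and Klf4 were not called, and whether Myzap, Clec1a and Adrb1 were called there is not given. No values in Xist-marked cells are given for Adgrl4, Tek, Pde4b, Jpt1, Srgn, Lgals9 and Marcks. Pecam1 stayed higher and Angpt2 lower in KO.

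Between capillary subsets (aerocyte-like minus general-capillary-like), the response was higher in aerocyte-like cells for Alas1 (2.04), Tcim (1.69), Ehd1 (1.46), Tspan13 (1.23), Ppp1r2 (1.15) and Ifitm3 (0.85). It was lower for Sema7a (-1.81), Igfbp7 (-1.53), Kdr (-1.24), Ly6c1 (-0.94) and Ly6a (-0.83). Without the KO vehicle library Ifitm3, Igfbp7 and Ly6a were still called and the other 8 were not. Without the WT vehicle library the calls of Alas1, Tcim, Tspan13, Ppp1r2 and Ly6c1 were lost.

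Between endothelial and stromal cells (endothelial minus stromal), the response was higher in endothelial cells for Vcan (8.20, on 0 endothelial UMIs with vehicle, so no bound), Timp3 (4.11), Akap12 (3.94), Mt1 (3.77) and Pmepa1 (3.29). It was lower for Fmo1 (-6.52), Emilin1 (-3.41), Nrp1 (-3.11), Antxr1 (-3.02), Lifr (-2.81) and Ttc28 (-2.45).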

How the results depend on the processing

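For LPS against vehicle (3379 higher, 2885 lower) plain totals gave 1816 and 5498, DESeq2 2141 and 1226, aerocyte-like cells 1659 and 1217, Xist-marked cells without platelet UMIs 2290 and 1816, and leaving out a library 2467 to 3371 and 1776 to 2903. For KO against WT under LPS (711 and 935) DESeq2 gave 225 and 404, Xist-marked cells 259 and 162, the same without platelet UMIs 201 and 139, aerocyte-like cells 73 and 100, plain totals 1050 and 646, and leaving out a library 480 to 684 and 608 to 953. For the difference in response (176 and 71) DESeq2 gave 57 and 43, no filter 387 and 206, general-capillary-like cells 133 and 42, leaving out an LPS library 179 to 250 and 97 to 139, and aerocyte-like cells 0 and 0 with edgeR, where 572 of 6920 genes had an unadjusted p under 0.05 and DESeq2 was not run. For the subsets no filter gave 86 and 50 and leaving out a library 3 to 25 and 2 to 24, and for stromal cells leaving out a library gave 110 to 316 and 73 to 167. The LPS replicates share a number between genotypes and, with 1 pair of pairs, a correlation of 0.103 between their deviations, so they were not taken as paired; the replicate block gave 3411 and 2963 for LPS, 791 and 1045 for KO against WT and 223 and 107 for the difference in response. Shares of barcodes moved to 3.37% (Ptprc at 0), 3.28% (8 marker UMIs) and 4.33% (Cldn5 and Cdh5 at least 2 UMIs) in KO LPS replicate 1, 2.85% (8 UMIs) in KO LPS replicate 2, 2.01% (8 UMIs) in WT LPS replicate 1, and 2.63, 2.54 and 3.31% in WT LPS replicate 2. Signs turned for KO against WT in Xist-marked cells, and in those without platelet UMIs, for Hpgd (-0.084 and -0.22), Clec14a (-0.13 and -0.12), Selp (0.46 and 0.47), Nfkbia (0.13 and 0.13), Klf2 (-0.33 and -0.55), Xist (0.13 and 0.0044), Mt1 (0.056 and 0.0093), Sox17 (-0.39 and -0.48, and -0.30 in aerocyte-like cells), Rsad2 (0.25 and 0.25) and, in the second only, Hey1 (-0.15). They also turned for Prkar2b (0.56 without platelet UMIs) and Entpd1 (-0.072 in aerocyte-like cells), and under LPS for Nos3 (-0.55 on plain totals), Cldn5, which chose the members (-0.22 on plain totals, -0.31 in aerocyte-like cells), and Xist (-0.53 to 12.53 when a library was left out). The cause was not tested beyond what each setting changes. DESeq2 gave adjusted p-values for only 4572 genes for KO against WT under LPS and 2454 for the difference in response. The main fit tested 10929, so those DESeq2 counts are over fewer genes. The settings by sex marks, subset, platelet UMIs and Cldn5 with Cdh5 were chosen after seeing the data, and Y-marked cells alone could not be compared because the WT LPS libraries held none. The difference in response rests on 1 vehicle library a genotype.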
